A study of Mus musculus with 6 samples.

Results

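The interferon response genes and the genes of MHC class I antigen presentation were examined in the prefrontal cortex (PFC) of mice exposed to early life stress (ELS). The set held 47 genes, named by symbol for their known place in these systems, among 22000 symbols of the deposited count table. A gene entered the comparison when it reached 1 CPM (counts per mega-count of its library) in all 3 mice of either group. That left 45 of the 47 members among 13185 genes tested. Of these, 44 reached the level in both groups and Psmb9 in the control mice only, whereas Usp18 and Nlrc5 reached it in neither group and are given by their values alone. The animals were male C57BL/6N mice, and RNA from the PFC was taken at 9 weeks of age. The 3 ELS mice had been socially isolated, which meant single housing under a filter cap from weaning, and the 3 control mice had been group-housed without the cap. Both groups were wild type and came from litters of the same mother, so that isolation, cap and cage composition cannot be told apart here. Each mouse gave 1 library, and the question was whether ELS mice differed from controls in these genes.

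Interferons are secreted proteins that cells release on sensing foreign or misplaced nucleic acid. Type I interferons bind the receptor made of Ifnar1 and Ifnar2 and type II interferon binds Ifngr1 and Ifngr2, and both receptors signal through JAK kinases to STAT transcription factors. STAT2 and IRF9 act at the interferon-stimulated response element (ISRE) in the promoters of induced genes, and STAT dimers bind the gamma-activated site (GAS). Among the products are antiviral proteins and the machinery that loads peptides onto MHC class I molecules. In the brain, microglia and endothelial cells are well-known responders, and neurons and glia keep a low level of many of these genes without infection.

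No member passed the test of ELS against control. With edgeR's quasi-likelihood test and Benjamini-Hochberg adjustment over all genes tested, 0 of 45 members were called, which took an adjusted p under 0.05 with a log2 fold change beyond 0.3 in either direction, beside 0.0152% of all genes, and every member had an adjusted p of 1. At an unadjusted p under 0.05 there were 3 members, Isg15, Rtp4 and Lgals3bp, or 6.67% of the members beside 4.23% of all genes. All 3 were higher in ELS mice, a direction that 1.89% of all genes took at that level. DESeq2, the edgeR likelihood ratio test and limma-voom called 0 members as well, with 4, 4 and 3 members at an unadjusted p under 0.05, beside 3.72%, 4.95% and 4.27% of all genes by the same tools. In bulk tissue, fewer cells of a type and less RNA per cell cannot be told apart.

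The members leaned to higher values in ELS mice by a small amount. The log2 fold change was above 0 in 29 of 45 members (64.4%, beside 47.5% of all genes) and below 0 in 16, and its median was 0.036, beside -0.0046 over all genes. With 1 mouse left out, the median came to between 0.018 (without ELS mouse 3) and 0.10 (without ELS mouse 2), and 24 to 34 members were above 0. It ran from -0.18 for Samhd1 to 0.55 for Rtp4 and Isg15. All 3 ELS mice lay above all 3 control mice in 4 members (Isg15, Rtp4, Lgals3bp and Ifit2), which is 8.89% of the members beside 3.81% of all genes. All 3 ELS mice lay below all controls in 1 member (Irf2), 2.22% beside 4.47%. The members with the largest positive differences were induced effectors, whose median was 0.18. The medians were 0.043 for antigen presentation genes, 0.020 for receptors, 0.011 for RNA sensors and RNA-binding enzymes and -0.061 for transcription factors. Single members of these lay farther from 0, such as Trim25 (0.21), Tap2 (0.18) and Irf8 (-0.16), and no test compared the roles.

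**Figure D1:**
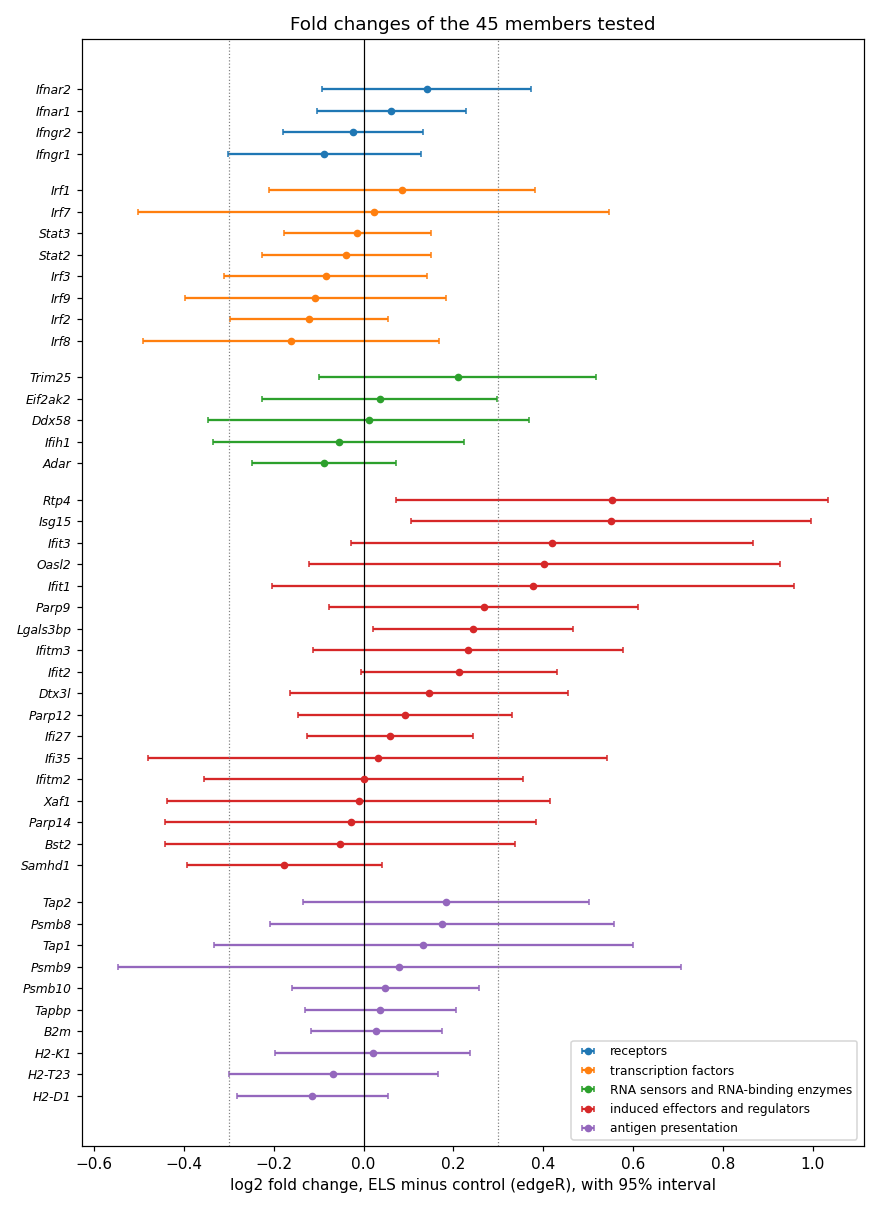
The log2 fold change of ELS against control mice (3 mice each) for the 45 members tested, grouped by role, with bars for the 95% interval of edgeR's quasi-likelihood fit. The values run from -0.18 to 0.55, and the members farthest to the right, Rtp4 and Isg15, are induced effectors.

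The table behind these values held 28405795 to 31061421 counts in the control mice and 32359353 to 35241743 in the ELS mice, so each ELS library was deeper than each control library. Members took 0.0757% to 0.0819% of the counts, and their median read support was 8.49 CPM against 30.4 CPM over all genes tested, not corrected for length. All CPM values printed here use library sizes scaled by the trimmed mean of M values (TMM), whereas the 1 CPM filter used unscaled library sizes. The precision followed the level, with a standard error (SE) of the log2 fold change from 0.0676 for B2m to 0.289 for Psmb9. The 95% interval lay within 0.3 of 0 on the log2 scale for 13 of 45 members and within 1 of 0 for 44. For most members a difference of the size of 0.3 was thus not bounded by these data, whereas a doubling or halving lay outside the interval.

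Promoters of the members were searched for the ISRE and GAS. The choice of genes had not read these letters, but many members were chosen as interferon response genes. A larger share with a match was therefore not independent of that choice. RefSeq promoter windows (GRCm38.p6, 250 bases before to 50 after the start) were matched by symbol or synonym for 40 of 47 members. No window was matched for Ifi27, Rtp4, Usp18, Parp9, Parp14, Tap2 and Nlrc5. The ISRE core was searched on both strands as GAAA, any 2 bases and GAAA, with overlapping matches counted. It lay in 13 of 40 members (32.5%) and in 3.99% of 27025 genes with a window. The members with it were Stat2, Irf2, Ifih1, Ddx58, Eif2ak2, Ifit1, Ifit3, Ifitm2, Ifitm3, Isg15, Bst2, B2m and H2-T23. By role that was 0 of 4 receptors, 2 of 8 transcription factors, 3 of 5 RNA sensors and RNA-binding enzymes, 6 of 14 effectors and 2 of 9 antigen presentation genes. The GAS core TTCNNNGAA lay in 13 of 40 members (32.5%) beside 9.55% of all genes with a window. A match describes letters and not a bound site, and no match says only that the letters are not in the window.

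The stretches below show the members with more than 1 ISRE core match (Isg15, Ifit1, Ifit3, Ifitm3 and Bst2) and 1 example each from the transcription factors, the RNA sensors and the antigen presentation genes, because they cover effectors on both sides of 0 difference. They are written 5′ to 3′ in the direction of the gene, with the ISRE core matches in capitals and up to 20 bases on either side. The Isg15 stretch lies at chr4:156200855-156200916 on the minus strand, where 3 overlapping matches begin 78 bases before the start. Ifit1 (chr19:34640765-34640833) and Ifit3 (chr19:34583353-34583436) lie on the plus strand. Ifitm3 (chr7:141010696-141010762) and Bst2 (chr8:71537567-71537622) lie on the minus strand. Stat2 (chr10:128270256-128270305) and B2m (chr2:122147528-122147577) are on the plus strand and Ifih1 (chr2:62646206-62646243) is on the minus strand.
Isg15: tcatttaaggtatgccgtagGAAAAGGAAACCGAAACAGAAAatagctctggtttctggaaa
Ifit1: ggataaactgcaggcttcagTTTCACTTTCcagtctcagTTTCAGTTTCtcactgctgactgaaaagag
Ifit3: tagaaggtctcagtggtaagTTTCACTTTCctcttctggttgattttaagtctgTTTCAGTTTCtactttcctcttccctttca
Ifitm3: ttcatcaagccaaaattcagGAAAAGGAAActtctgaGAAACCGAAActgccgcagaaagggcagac
Bst2: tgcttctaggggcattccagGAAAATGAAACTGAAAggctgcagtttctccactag
Stat2: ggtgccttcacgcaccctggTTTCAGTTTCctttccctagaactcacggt
Ifih1: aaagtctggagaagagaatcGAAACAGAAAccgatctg
B2m: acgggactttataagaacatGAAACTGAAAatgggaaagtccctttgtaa

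The differences between groups were set beside the ISRE core without a test. The median log2 fold change was 0.011 over the 13 members with a match and 0.038 over the 27 tested members with a window and no match. The range ran from -0.12 to 0.55 with a match and from -0.18 to 0.40 without, where Rtp4 and Parp9 are missing because they have no window. Isg15 had 3 matches and Bst2 had 2 overlapping ones, and their differences were 0.55 and -0.05.

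The receptors lay near 0 difference. Ifngr2, the accessory chain of the interferon gamma receptor, measured 59.6, 60.2 and 63.7 CPM in control mice and 60.0, 64.4 and 56.2 CPM in ELS mice. Both the highest and the lowest of these belonged to ELS mice. Its group means were 61.2 ± 2.18 and 60.2 ± 4.11 CPM (SD, n = 3 each), and the log2 fold change was -0.02 (SE 0.0718, edgeR quasi-likelihood adjusted p = 1). Ifnar1, a chain of the type I receptor, measured 47.7, 45.6 and 41.0 CPM in controls and 44.97, 48.95 and 46.3 CPM in ELS mice, and the groups overlapped. Its log2 fold change was 0.06 (SE 0.0764), and it came to 0.11 without control mouse 1, 2e-04 without control mouse 3 and 0.02 without ELS mouse 2. The partner chains Ifnar2 and Ifngr1 had log2 fold changes of 0.14 and -0.09, so 2 of the 4 receptors were above 0 and 2 below.

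The transcription factors were the role group with most members below 0, 6 of 8, with a median log2 fold change of -0.061. Irf2, which binds the same promoter element as Irf1 and often opposes it, measured 23.7, 26.4 and 23.2 CPM in control mice and 22.4, 22.8 and 22.1 CPM in ELS mice. All 3 ELS mice lay below all controls, by little at the nearest pair. The means were 24.4 ± 1.71 and 22.4 ± 0.357 CPM (SD, n = 3 each), with a log2 fold change of -0.12 (SE 0.0810) and an unadjusted p of 0.16 by edgeR's quasi-likelihood test, and it came to -0.06 without control mouse 2. Stat3, which acts downstream of several cytokines, measured 41.4, 40.7 and 38.2 CPM in controls and 41.7, 36.7 and 40.7 CPM in ELS mice, with overlapping groups and a log2 fold change of -0.01 (SE 0.0753). Stat2 and Irf9, which act together at the ISRE, had log2 fold changes of -0.04 and -0.11. Irf3, which acts first after nucleic acid sensing, had -0.08, and Irf8, which in brain is mainly a microglial factor, had -0.16. Irf1 stood at 0.09. Irf7, itself an induced gene that amplifies type I interferon production, stood at 0.02, and its level spread widely among ELS mice, at 2.58, 1.94 and 3.72 CPM against 3.02, 2.26 and 2.79 CPM in controls.

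Of the RNA sensors and RNA-binding enzymes, 3 of 5 were above 0 and the median log2 fold change was 0.011. Adar, which edits adenosine to inosine in double-stranded RNA, the member with the most reads, measured 149, 132 and 125 CPM in control mice and 127, 127 and 128 CPM in ELS mice. Control mouse 1 stood above the other 5 mice, and the groups overlapped. Its means were 135 ± 12.3 and 127 ± 0.657 CPM (SD, n = 3 each) with a log2 fold change of -0.09 (SE 0.0739), which came to -0.01 without control mouse 1 and -0.15 without control mouse 3. Of the 100-base stretches of the Adar exons, 11.8% also occur in Chrnb2 on the opposite strand, and the strand setting of the counts is not stated. Trim25, a ubiquitin ligase that activates the sensor encoded by Ddx58, measured 7.89, 9.20 and 6.53 CPM in controls and 9.14, 8.12 and 10.1 CPM in ELS mice. ELS mouse 3 was highest and control mouse 3 lowest, with overlap between them, and the log2 fold change was 0.21 (SE 0.142). It came to 0.09 without control mouse 3, 0.13 without ELS mouse 3 and 0.34 without control mouse 2. Ifih1, a sensor of long double-stranded RNA, measured 8.70, 9.31 and 8.10 CPM in controls and 7.49, 7.92 and 9.73 CPM in ELS mice. Its groups overlapped, with a log2 fold change of -0.06 (SE 0.129). Ddx58, a sensor of viral RNA ends, and Eif2ak2, a kinase that halts translation on binding double-stranded RNA, stood at 0.01 and 0.04.

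The induced effectors and regulators held the members with the larger differences. Of 19 listed, 18 were tested, 14 were above 0 and 4 below, and the median log2 fold change was 0.18. The 5 members with an absolute log2 fold change above 0.3 were all here (Rtp4, Isg15, Ifit3, Oasl2 and Ifit1), 27.8% of the effectors beside 4.64% of all genes. These genes rested on few reads, with a median of 4.26 CPM and a median SE of 0.172 in this role group beside 0.0897 over all genes.

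Isg15, a ubiquitin-like protein that is attached to other proteins during an interferon response, measured 1.88, 1.63 and 1.47 CPM in control mice and 2.16, 2.49 and 2.66 CPM in ELS mice. All ELS mice lay above all controls. These values rest on 58, 46 and 42 reads in controls and 72, 87 and 86 in ELS mice. The means were 1.66 ± 0.210 and 2.44 ± 0.257 CPM (SD, n = 3 each), and the log2 fold change was 0.55 (SE 0.205, 95% interval 0.11 to 0.9954). By edgeR's quasi-likelihood test the unadjusted p was 0.0192 and the adjusted p was 1, and over 15 alternative analyses the adjusted p ranged from 0.471 to 1. With 1 mouse left out, the log2 fold change ran from 0.47 to 0.65. The unadjusted p by that test then exceeded 0.05 without control mouse 3 (0.0698), ELS mouse 2 (0.0515) or ELS mouse 3 (0.0679). Isg15 lies at chr4:156199424-156200818 on the minus strand (GRCm38), and the ISRE core matches shown above stand directly upstream of it.

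Rtp4, a receptor transporter protein that interferon induces, measured 1.56, 2.16 and 1.5 CPM in controls and 2.25, 2.40 and 3.00 CPM in ELS mice. The groups did not overlap, and control mouse 2 came close to the lowest ELS mouse. The means were 1.74 ± 0.364 and 2.55 ± 0.401 CPM (SD, n = 3 each) with a log2 fold change of 0.55 (SE 0.222) and an unadjusted p of 0.0277 by edgeR's quasi-likelihood test. Of the 100-base stretches of the Rtp4 exons, 9.28% also occur in the overlapping gene model Gm45338, so reads from there may be missing from its count. Lgals3bp, a secreted glycoprotein that binds galectins, measured 11.6, 10.2 and 10.8 CPM in controls and 12.01, 12.7 and 13.8 CPM in ELS mice. Every ELS mouse again lay above every control. The means were 10.8 ± 0.717 and 12.9 ± 0.925 CPM (SD, n = 3 each), with a log2 fold change of 0.24 (SE 0.103) and an unadjusted p of 0.0348 by edgeR's quasi-likelihood test. The log2 fold change ran from 0.19 without ELS mouse 3 (unadjusted p 0.142 by that test) to 0.29 without control mouse 1 (0.0267).

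The Ifit genes encode proteins that bind viral RNA, and Ifit1 and Ifit3 spread more than Isg15 between the ELS mice. Ifit2 measured 13.4, 13.3 and 12.6 CPM in controls and 13.45, 15.7 and 16.4 CPM in ELS mice. ELS mouse 1 sat almost on the highest control, and the other ELS mice stood above. Its log2 fold change was 0.21 (SE 0.1), with an unadjusted p of 0.0543 by edgeR's quasi-likelihood test. Ifit3 measured 7.04, 5.98 and 5.62 CPM in controls and 7.31, 6.11 and 11.6 CPM in ELS mice. ELS mouse 3 stood apart from the other 5 mice, and the other ELS mice reached into or close to the control range. The log2 fold change of Ifit3 was 0.42 (SE 0.206) and came to 0.11 without ELS mouse 3. Ifit3 shares 31.7% of its 100-base exon stretches with its neighbour Ifit3b, which itself had a log2 fold change of -0.05. Only uniquely mapped reads were counted, so reads that match both genes may be missing from both counts. Ifit1 measured 2.60, 2.79 and 2.65 CPM in controls and 4.28, 1.91 and 4.28 CPM in ELS mice. Its ELS mice 1 and 3 lay above and ELS mouse 2 below all controls, a 2.24-fold span that was the widest among the tested members.

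**Figure D2:**
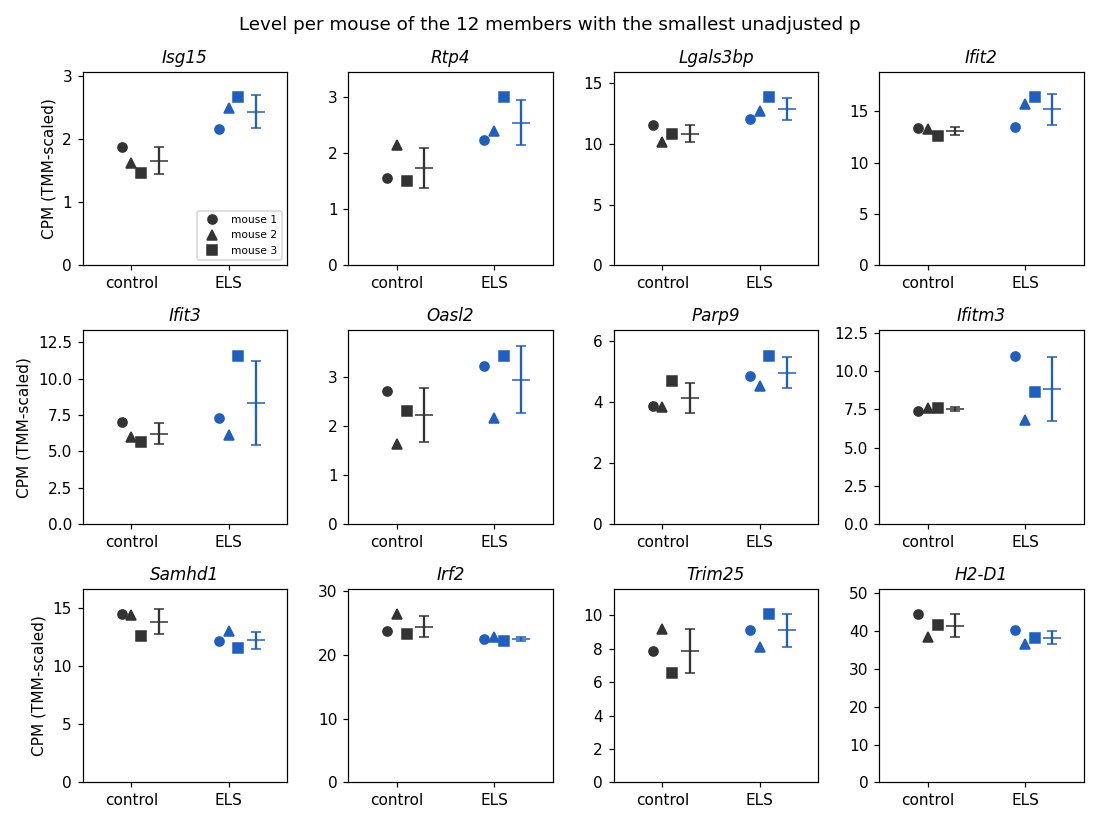
CPM of the 12 members with the smallest unadjusted p in each of the 3 control and 3 ELS mice, with the group mean and its SD. Isg15, Rtp4 and Lgals3bp show ELS mice above all controls, whereas in Ifit3 the difference is carried by 1 ELS mouse at 11.6 CPM.

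Oasl2, of the oligoadenylate synthase-like family, measured 2.73, 1.63 and 2.30 CPM in controls and 3.24, 2.17 and 3.44 CPM in ELS mice. The groups overlapped through ELS mouse 2, and the log2 fold change of 0.40 (SE 0.242) came to 0.23 without control mouse 2. Parp9 measured 3.86, 3.82 and 4.68 CPM in controls and 4.85, 4.51 and 5.51 CPM in ELS mice. The 2 groups overlapped only between control mouse 3 and ELS mouse 2, with a log2 fold change of 0.27 (SE 0.159). Dtx3l, the ubiquitin ligase that works in a complex with the Parp9 protein, stood at 0.15, and the exons of both genes overlap in part on opposite strands, so that without stated strand counting their reads cannot be told apart there. Ifitm3, a membrane protein that blocks virus entry, measured 7.37, 7.57 and 7.61 CPM in controls and 11.03, 6.80 and 8.68 CPM in ELS mice. The controls lay close together, and the ELS mice fell on both sides of them. Its log2 fold change was 0.23 (SE 0.159), and it came to 0.04 without ELS mouse 1 and 0.39 without ELS mouse 2.

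Samhd1, which degrades deoxynucleotides and restricts viruses, had the lowest log2 fold change of all members. It measured 14.5, 14.4 and 12.6 CPM in controls and 12.2, 13 and 11.6 CPM in ELS mice, and the groups overlapped through control mouse 3. The means were 13.8 ± 1.07 and 12.2 ± 0.726 CPM (SD, n = 3 each), with a log2 fold change of -0.18 (SE 0.0999) and an unadjusted p of 0.102 by edgeR's quasi-likelihood test. Ifi27, an interferon-induced membrane protein and the effector with the most reads, measured 19.6, 19.9 and 21.5 CPM in controls and 22.7, 20.4 and 20.4 CPM in ELS mice. Its groups overlapped at a log2 fold change of 0.06 (SE 0.0848), which came to 0.03 without control mouse 1, 0.10 without control mouse 3 and 0.0053 without ELS mouse 1. Bst2, which tethers budding virus to the cell, stood at -0.05, Xaf1 at -0.01, Ifitm2 at 0.00, Ifi35 at 0.03, Parp12 at 0.09 and Parp14 at -0.03. Usp18, the protease that removes the Isg15 protein from its targets and dampens receptor signalling, was below the filter, with 0.909, 0.566 and 1.01 CPM in controls and 1.05, 0.514 and 1.49 CPM in ELS mice. ELS mouse 2 was lowest and ELS mouse 3 highest.

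The antigen presentation genes had a median SE of 0.104, beside 0.172 for the effectors, and none had a log2 fold change beyond 0.3. Of 11 listed, 10 were tested, 8 were above 0 and 2 below, and the median log2 fold change was 0.043. B2m, the light chain that every MHC class I molecule needs, measured 81.0, 81.3 and 90.2 CPM in control mice and 87.0, 84.4 and 86.1 CPM in ELS mice. The ELS mice lay inside the control range. The means were 84.2 ± 5.21 and 85.8 ± 1.32 CPM (SD, n = 3 each), with a log2 fold change of 0.03 (SE 0.0676, 95% interval -0.12 to 0.18). It stayed between 0.0018 and 0.08 with any 1 mouse left out, the latter without control mouse 3. H2-D1, a classical class I heavy chain, measured 44.5, 38.4 and 41.6 CPM in controls and 40.2, 36.7 and 38.1 CPM in ELS mice. The groups overlapped, and the log2 fold change of -0.11 (SE 0.0775) came to -0.06 without control mouse 1.

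H2-K1, the other classical heavy chain, stood at 0.02, and H2-T23, a non-classical class I chain, at -0.07. H2-D1, H2-T23 and H2-K1 shared 3.59%, 3.15% and 0.957% of their 100-base exon stretches with other genes. Some other members shared more, such as Ifitm2 (34.9%, mostly with the gene model Gm45717) and Tapbp (14.8%, mostly with Gm19412). Psmb10, a subunit of the immunoproteasome that cuts proteins into peptides, measured 35.0, 40.3 and 43.2 CPM in controls and 44.0, 36.1 and 42.5 CPM in ELS mice. Each group spread over most of the range of the other, and the log2 fold change was 0.05 (SE 0.0962). The partner subunits Psmb8 and Psmb9 stood at 0.17 and 0.08. Tap1 and Tap2, the transporter that carries peptides into the endoplasmic reticulum, stood at 0.13 and 0.18, and Tapbp, which holds class I molecules to it, stood at 0.04. Nlrc5, a transactivator of class I genes, was below the filter, at 0.422, 0.248 and 0.349 CPM in controls and 0.509, 0.543 and 0.527 CPM in ELS mice. Those values rest on 7 to 13 reads in controls and 17 to 19 in ELS mice, which did not overlap.

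Per kilobase of exon, B2m was the member with the highest level, at 98.8 CPM per kb over the 6 mice, followed at a distance by Psmb10 (23.6), Adar (16.2), Ifngr2 (16.1), H2-D1 (15.5), Ifi27 (14.2) and Ifitm3 (12.1). The order of Adar, Ifngr2 and H2-D1 falls within the spread between mice. Isg15 stood at 2.71 CPM per kb and Rtp4 at 1.01. The lowest tested member was Psmb9 at 0.343 CPM per kb, and Nlrc5 stood at 0.0510.

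The members did not move evenly across the ELS mice. ELS mouse 3 had the highest value of the 6 mice in 19 of 45 members (42.2%), beside 12% of all genes tested, and ELS mouse 1 in 12 (26.7%), beside 13.6%. ELS mouse 2 was highest in 2 members (4.44%) and lowest in 15 (33.3%), beside 12.8% and 12.9% of all genes. The median deviation of the members from their mean on the log2(CPM + 0.5) scale was 0.098 in ELS mouse 3, 0.047 in ELS mouse 1 and -0.068 in ELS mouse 2. In the control mice it was 0.033, -0.025 and -0.059, and control mouse 3 was lowest in 13 members. ELS mouse 3 led in 8 of 18 effectors, 4 of 5 RNA sensors and RNA-binding enzymes and 6 of 10 antigen presentation genes, but in 1 of 8 transcription factors and 0 of 4 receptors. Without ELS mouse 3, 0 of 45 members reached an unadjusted p under 0.05 by edgeR's quasi-likelihood test, beside 2.77% of the genes tested. Without ELS mouse 1 there were 5 members (11.1%, beside 3.53% of the genes tested), and without ELS mouse 2 there were also 5 (10.9%, beside 3.88%). The latter were Ifit1, Ifit3, Ifitm3, Oasl2 and Rtp4, so Isg15 and Lgals3bp were not among them. Without control mouse 1 there were 2 (4.44%, beside 4.16%), and without control mouse 2 there were 3 (6.67%, beside 3.11%). Without control mouse 3 there were 2, Adar and Samhd1 (4.44%, beside 11.7% of the genes tested). Both were lower in ELS mice, and Isg15, Rtp4 and Lgals3bp were not among them.

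**Figure D3:**
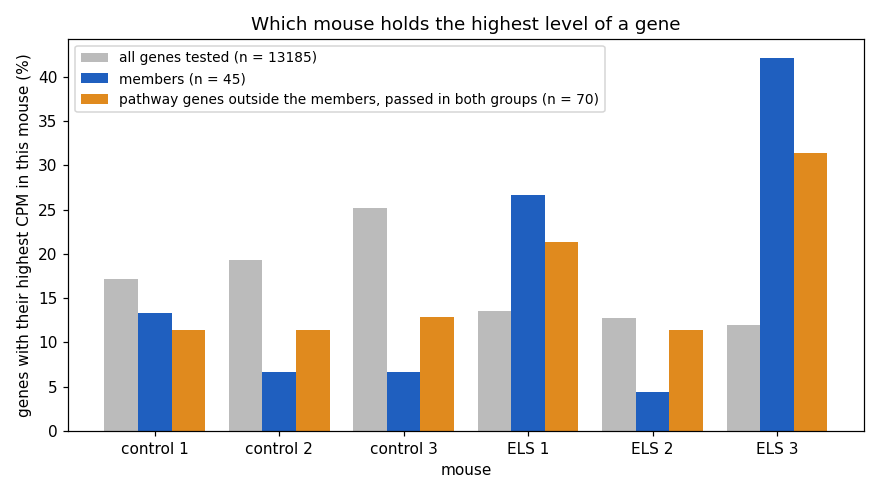
Share of genes, in percent, for which each of the 6 mice had the highest CPM, for all 13185 genes tested, the 45 members and the 70 pathway genes outside the members that passed the CPM filter in both groups. ELS mouse 3 was highest in 42.2% of the members and in 12% of all genes, and ELS mouse 2 in 4.44% and 12.8%.

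**Figure D4:**
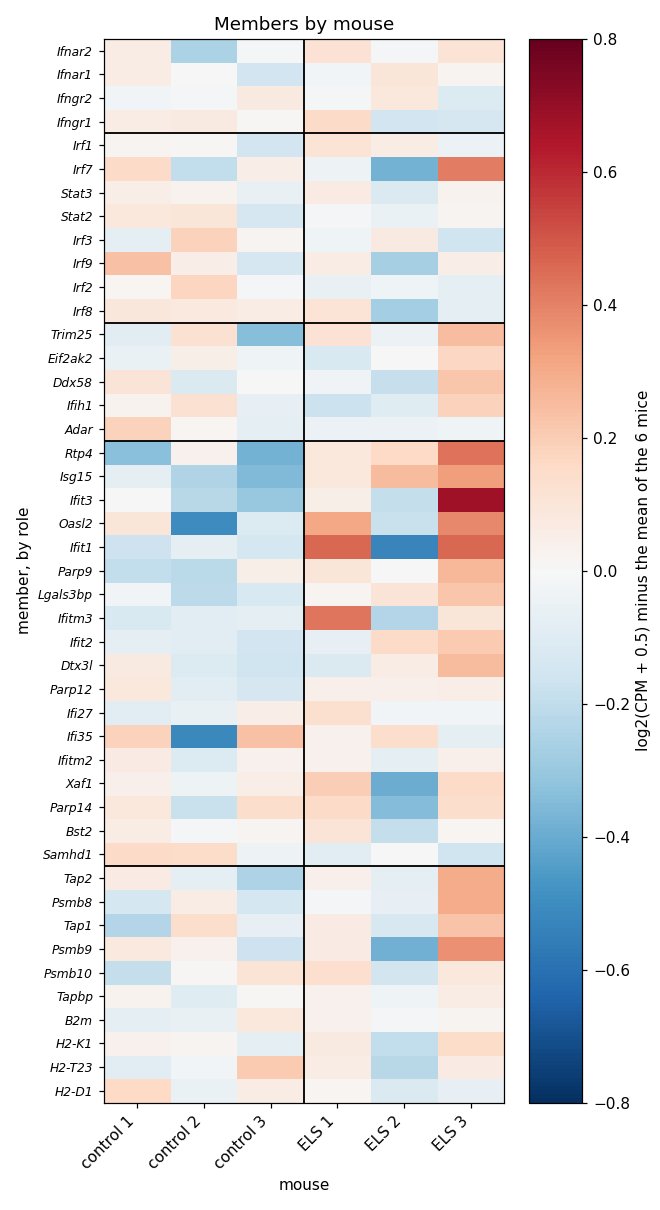
Deviation of each tested member from its mean over the 6 mice on the log2(CPM + 0.5) scale, with members as lines of the map, grouped by role, and mice as columns. Many effectors are above their mean in ELS mouse 3, and ELS mouse 2 is below the mean in many members, such as Ifit1 and Irf7.

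Of 115 listed genes of the same pathway outside the members, 114 were in the table and 73 were tested, of which 3 passed the CPM filter through the ELS group only and are left out of the counts that follow. Of the 70 that passed in both groups, 39 were above 0 (55.7%, beside 47.3% of all genes that did), and the median log2 fold change was 0.017, beside -0.0049. By edgeR's quasi-likelihood test 0 of the 70 were called, and 4 of the 70 had an unadjusted p under 0.05 (5.71%, beside 4% of the 12960 genes that passed in both groups). These 4, Gbp5, Iigp1, Tapbpl and Cd74, were higher in ELS mice. DESeq2, the edgeR likelihood ratio test and limma-voom called 0 as well. ELS mice all lay above controls in 7 of the 70 (10%, beside 3.62% of the genes that passed in both groups) and all below in 1 (1.43%, beside 4.44%). Of the 32 induced genes that passed in both groups, 22 were above 0, with a median of 0.11. Of the sensing genes 1 of 7 was above 0, of the kinases, STATs and brakes 5 of 11, of the class I loading genes 8 of 15 and of the MHC class II genes 2 of 4.

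Rsad2, which makes an antiviral nucleotide, measured 1.43, 0.920 and 1.43 CPM in controls and 2.46, 1.86 and 3.81 CPM in ELS mice. No ELS mouse overlapped the controls, but the gene passed the CPM filter through the ELS group only, so its values are given with no test. Iigp1, an immunity-related GTPase, measured 1.72, 1.27 and 1.57 CPM in controls and 3.27, 1.80 and 3.75 CPM in ELS mice. ELS mouse 2 came close to the controls, and the log2 fold change was 0.94 (SE 0.274, adjusted p = 0.861 by edgeR's quasi-likelihood test).

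Tapbpl, a peptide editor of class I molecules related to Tapbp, measured 7.24, 7.78 and 7.92 CPM in controls and 9.35, 9.63 and 9.70 CPM in ELS mice. Both groups were tight and apart, with a log2 fold change of 0.32 (SE 0.108) and an adjusted p of 0.97 by edgeR's quasi-likelihood test. Gbp5, a guanylate-binding protein, measured 2.47, 2.41 and 1.61 CPM in controls and 3.30, 3.09 and 3.00 CPM in ELS mice, which again did not overlap, with a log2 fold change of 0.53 (SE 0.204). H2-Eb1, an MHC class II chain, measured 1.01, 1.66 and 0.698 CPM in controls and 3.15, 1.71 and 1.46 CPM in ELS mice. ELS mouse 1 stood apart and the groups overlapped, and this gene too passed the filter through the ELS group only and is given with no test.

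Mx1, Ifi44 and Cxcl10, all well-known induced genes, did not reach the CPM filter in either group and were left out of the main test. Mx1 had 8, 0 and 1 reads in controls and 6, 6 and 5 in ELS mice, and Ifi44 had 24, 14 and 23 against 50, 17 and 27. Cxcl10, a chemokine, had 1, 1 and 0 reads in controls and 3, 4 and 63 in ELS mice, so that nearly all of its reads came from ELS mouse 3. The 6 interferon genes in the list had at most 1 read in any mouse. Ifna1, Ifna2, Ifna4 and Ifnb1 had 0 reads in all 6 mice, which allows up to 0.0851 to 0.106 CPM per mouse at 3 counts and covers counting error only, and Ifng had 1 read, in ELS mouse 3. Ifnk had 1 read in control mouse 1 and 1 in ELS mouse 2.

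Markers of the cells that could carry such genes were counted in the same libraries. The summed level of 11 microglial markers was 421 to 456 CPM in control mice and 436 to 465 CPM in ELS mice. Of the 11, 10 had a log2 fold change above 0, with a median of 0.11, and none passed the test or reached an unadjusted p under 0.05 by edgeR's quasi-likelihood test. In 3 of the 11 (Cx3cr1, Itgam and Fcrls), every ELS mouse lay above every control, which is 27.3% beside 3.81% of all genes. Endothelial markers summed to 329 to 357 CPM in controls and 336 to 389 CPM in ELS mice, with 7 of 9 above 0. The endothelial marker Cldn5 had a log2 fold change of 0.31 and an unadjusted p of 0.0109 by edgeR's quasi-likelihood test (adjusted p = 0.97), smaller than that of any member. ELS mouse 3 had the highest sum of both lists, at 465 and 389 CPM. Meningeal fibroblast markers were above 0 in 6 of 6, at 46.2 to 61.3 CPM in controls and 54.7 to 70.7 CPM in ELS mice, and Dcn among them had a log2 fold change of 0.25 and an unadjusted p of 0.0279 by the same test (adjusted p = 1). The perivascular macrophage markers summed to 8.70 to 10.1 and 9.91 to 10.9 CPM. The part of these cells in the differences above was not tested.

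Of the 7 lymphocyte markers, 6 were under 1 CPM in every mouse, and the list summed to 1.40 to 4.78 CPM in controls and 1.74 to 3.21 CPM in ELS mice. No marker of any list was at 0 in all mice. Blood markers summed to 51.0 to 85.1 CPM in controls and 52.6 to 79.7 CPM in ELS mice, and choroid plexus markers to 2.58 to 3.54 and 2.42 to 4.70 CPM. Astrocyte markers summed to 6419 to 6565 CPM in controls and 5777 to 6650 CPM in ELS mice, oligodendrocyte markers to 6310 to 8292 and 6348 to 7362 CPM, and cortical neuron markers to 11640 to 12280 and 11080 to 12150 CPM. Striatal markers stood apart in 1 mouse of each group, at 429 CPM in control mouse 3 and 413 CPM in ELS mouse 1 against 239.2 to 298.5 CPM in the others. Without these mice, 2 members (Ifit2 and Lgals3bp) had an unadjusted p under 0.05 by edgeR's quasi-likelihood test, beside 8.74% of the genes tested, and 0 were called.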

How the data were processed

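Poly(A) RNA was sequenced as paired-end reads from the PFC of 6 mice (3 control, 3 ELS), 1 library per mouse. The authors deposited raw read counts per gene symbol in 1 table. Reads were trimmed, aligned to mm10 with STAR and counted with HTSeq from uniquely mapped reads; the submitters' processing notes name STAR 2.7.1a and HTSeq 0.9.1, and the methods name another STAR version and another library kit than the labels. Annotation release and strand setting are not given in the sources used here. The columns named for social isolation were matched to the ELS mice by term and number. The table held 27 date-like symbols and 2 duplicated symbols, none of them members.

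Genes reaching 1 CPM throughout either group were tested with edgeR 4.0.16 (R 4.3.3; TMM factors, glmQLFit and glmQLFTest, no covariate) and Benjamini-Hochberg adjustment over all genes tested. A gene was called at adjusted p under 0.05 and absolute log2 fold change above 0.3. Tests were checked on simulated counts. Alternatives were DESeq2 1.42.0, limma-voom (limma 3.58.1), the edgeR likelihood ratio test, other scalings and filters, the replicate number as a block, and 1 mouse left out at a time. Exon lengths and shared 100-base stretches came from GENCODE gene models on GRCm38, promoters from RefSeq. Plots were drawn with matplotlib 3.10.9.

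The members and the lists of pathway genes and markers were chosen with earlier results of these data known. All members could be named; values in every mouse were given for the 12 members with the smallest unadjusted p and the 2 with the highest mean CPM in each role, for the 5 pathway genes with the smallest unadjusted p, and for Mx1, Ifi44 and Cxcl10; 1 further gene of that rule is not reported here. Values of Irf7, Ifit1, Usp18, Nlrc5 and the interferon genes were added after they were seen, as were the counts over pathway genes that passed the filter in both groups. P-values measure the spread between these mice.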

Additional observations from a re-analysis of the deposited data

How the results depend on the processing

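No member and no pathway gene outside the members was called under any of the alternatives run. The median log2 fold change of the members stayed above 0, at 0.018 to 0.10 when 1 mouse at a time was left out, and 24 to 34 members were higher in ELS. Members at an unadjusted p under 0.05 numbered 0 to 5 with 1 mouse left out (0 without ELS mouse 3, 5 without ELS mouse 1 or 2). Pathway genes at that level numbered 4 among those that passed the CPM filter in both groups. Over all 73 kept pathway genes the count was 6 (8.22%, beside 4.23% of all genes). This includes genes kept only because they were high in ELS mice, so it is no result about the list. The count was 10 under the edgeR likelihood ratio test (4.95% of all genes). Over the larger set with at least 1 read it was 11 (4.14%). It was 5, 8 and 9 without control mouse 1, 2 and 3, beside 4.16%, 3.11% and 11.7% of all genes. Without ELS mouse 1, 2 and 3 it was 5, 11 and 8, beside 3.53%, 3.88% and 2.77%. Over all genes 2 were called, against 18 by DESeq2, 28 by the likelihood ratio test, 4 over all genes with at least 1 read, 29 without control mouse 3, 1 without any of the other mice, and 27 without both control mouse 3 and ELS mouse 1, an alternative chosen after seeing the data. The cause was not tested. Genes near 0 changed sign with 1 mouse left out, over log2 fold changes of -0.0764 to 0.024 for Ifngr2, -0.0526 to 0.0369 for Stat3, -0.1756 to 0.0165 for Ifih1 and -0.0311 to 0.1287 for Psmb10. Without control mouse 3 and ELS mouse 1, Ifngr2 was 0.0126. The 20 members with values in every mouse otherwise kept their direction, though values near 0 moved in size.

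Whether the replicate numbers pair the mice is not stated in the sources used here. The deviations of same-numbered mice correlated at -0.145, 0.238 and -0.0339, which cannot decide it, because pairing is set by the design. With a replicate block, 3 members had an unadjusted p under 0.05 (beside 4.35% of all genes), 0 members and pathway genes were called, the median of the members was 0.0384, and 7 genes of all were called. Isg15 rests on 42 to 87 reads per mouse, and most members lie below 10 CPM. Pairs of mice of a group differed by 6.7 to 21.4 times counting noise (chi-square per degree of freedom).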
